A study of Mus musculus with 22 samples.

Results

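Vascular and leptomeningeal cells (VLMCs) were represented by 115 of the 24965 hypothalamic nuclei, and of 79855 nuclei and whole cells in all. Their members were the nuclei that the deposited annotation names VLMC, an annotation that the study made by clustering the nuclei and naming clusters from their marker genes. VLMCs are fibroblast-like cells of the meninges and of the walls of larger brain vessels. They build and remodel the collagen-rich matrix of these layers, and the arachnoid barrier cells among them carry solute transporters between cerebrospinal fluid and blood. They border the fluid into which an intracerebroventricular (icv) injection is given.

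Male ob/ob mice, which lack leptin and become obese and diabetic, received a single icv injection at 11 weeks of age. It held either vehicle or FGF1 (fibroblast growth factor 1) at a dose of 3 µg, and vehicle mice were given as much food as FGF1 mice ate (pair-feeding). Every group was ob/ob, and neither a lean group nor a vehicle group without pair-feeding entered. Nuclei of 3 FGF1 and 3 vehicle mice were taken on Day 1 and of 2 and 2 mice on Day 5, with 1 mouse per library. Whole cells came from a separate cohort of 6 and 6 mice on Day 5. Per the paper, the mice for nuclei were from Jackson Laboratories and those for whole cells from Janvier Labs. Nuclei were taken from a punch of the hypothalamus, and whole cells from a triangular piece of its mediobasal part.

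The VLMC markers set the members apart. Of the 115 nuclei, 108 (93.9%) carried at least 3 unique molecular identifiers (UMIs) of 14 VLMC markers, against 2.61% of the 24850 other nuclei. The summed level of these markers was 51.1 UMIs per 10000, against 7.24 in endothelial nuclei, 4.24 in astrocytes and 4.16 in tanycytes. Dcn (decorin, a matrix proteoglycan) had a UMI in 42.6% of VLMC nuclei, Slc6a13 (a GABA and taurine transporter) in 30.4% and Col1a1 (a fibrillar collagen chain) in 15.7%. The transcription factor gene Bnc2 had one in 64.3%. Markers of other cells were present as well. At least 3 UMIs of 6 astrocyte markers were found in 71.3% of VLMC nuclei. Their summed level was 39.7 UMIs per 10000, against 78.4 in astrocytes and 44.8 in tanycytes. By gene, a UMI was found in 11.3% (Aqp4) to 67.8% (Gpc5) of VLMC nuclei, and Gpc5 had one in 52.4% of all other nuclei. At least 3 UMIs of 5 neuron markers were found in 52.2% of VLMC nuclei. Of 8 mural cell markers, Vtn and Atp13a5 had a UMI in 22.6% each and Pdgfrb in 21.7%, while Abcc9, Kcnj8 and Myh11 had none. Rax (tanycytes) and Cd163 (macrophages) had no UMI either. Since the annotation itself rests on expression, these values describe the members and test nothing. Among genes with at least 40 UMIs here, the highest level relative to all other nuclei, pooled over the groups, was that of Prg4 (lubricin, 1309-fold), with Dcn at 189-fold and Slc6a20a (a proline transporter) at 131-fold. This order depends on the mix of groups: 298 of 417 Prg4 UMIs (270 in FGF1 replicate 3) and 210 of 271 Dcn UMIs came from the Day 1 FGF1 mice, and 7 of 173 for Slc6a20a. Spp1 (osteopontin) stood at 233-fold in the pool, with 1082 of its 1136 UMIs from the Day 1 FGF1 mice, and in Day 1 vehicle mice its level was 204 CPM (UMIs relative to the total of the nuclei, here without TMM scaling) in VLMCs and 354 CPM in endothelial nuclei. Slc6a20a was not particular to VLMCs either. Pooled over the groups, it was at 463 CPM in VLMCs and 246 CPM in endothelial nuclei, with a UMI in 35.7% and 50% of nuclei.

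Members were few and uneven over mice. Day 1 FGF1 replicates 1, 2 and 3 gave 12, 6 and 28 VLMC nuclei and Day 1 vehicle replicates gave 19, 15 and 12, with 21402 to 80564 UMIs per mouse. On Day 5, FGF1 replicates 37 and 45 gave 6 and 7 nuclei, vehicle replicates 28 and 38 gave 3 and 7, and these mice held 13021 to 34244 UMIs. A VLMC nucleus held a median of 2732 UMIs. In Day 1 FGF1 replicate 1, ribosomal protein genes took a median of 5.42% of UMIs and over 5% in 7 of 12 nuclei, against medians of 1.31% to 2.41% in the other mice. Barcodes of 5 VLMC nuclei also occurred in another library.

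VLMCs made up 0.241%, 0.237% and 2.51% of nuclei in the mice given FGF1 on Day 1, and 1.53%, 0.663% and 1.11% in those given vehicle. The ranges overlapped, with FGF1 replicate 3 above and the other FGF1 mice below every vehicle mouse. The means were 0.996% ± 1.31 (SD, n = 3) and 1.10% ± 0.434 (SD, n = 3), and an exact two-sided permutation test gave p = 1, where 0.1 is the smallest p that 3 against 3 mice allow. On Day 5 the shares were 0.271% and 0.121% with FGF1 and 0.0943% and 1.18% with vehicle (exact p = 1, smallest possible 0.333).

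To ask which VLMC genes responded on Day 1, UMIs were summed per mouse and compared by edgeR's quasi-likelihood test over 1061 genes, with mice of at least 10 VLMC nuclei, which left out FGF1 replicate 2. Genes of matrix and other secreted proteins (Spp1, Timp1, Igfbp5, Mmp3, Ccl2, Dcn, Col3a1) were among those that rose, and the solute carriers Slc6a13 and Slc6a20a among those that fell. At a Benjamini-Hochberg adjusted p below 0.05, 24 genes (2.26%) were called, 19 higher (1.79%) and 5 lower (0.471%) with FGF1, and 147 (13.9%) had an unadjusted p below 0.05. With all 6 mice, 9 of 741 genes (1.21%) were called and all of them were among the 24: Timp1, Igfbp5, Spp1, Peak1 and Sdc4 rose and Slc6a13, Slc6a20a, Nov and Ildr2 fell. The number of calls without 1 mouse was 52 without FGF1 replicate 1, 123 without FGF1 replicate 3, 7 without vehicle replicate 1, 4 without vehicle replicate 2 and 11 without vehicle replicate 3. The metadata put 1 FGF1 and 1 vehicle mouse in each of 3 batches, and a batch term, which the main test lacks, ended most calls: 2 genes were called in the same 5 mice (Ccl2 and Timp1, with 1 residual degree of freedom) and 13 in all 6, of which 11 were among the 24. Leaving out an FGF1 mouse leaves that arm with 1 mouse, which is then assumed to vary like the vehicle mice. Ccl2, Timp1 and Igfbp5 were called in each of these 5 fits, Mmp3 and Tm4sf1 in 4, Spp1, Peak1, Slc6a13 and Slc6a20a in 3, and the other 15 genes in 1 or 2.

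**Figure D1:**
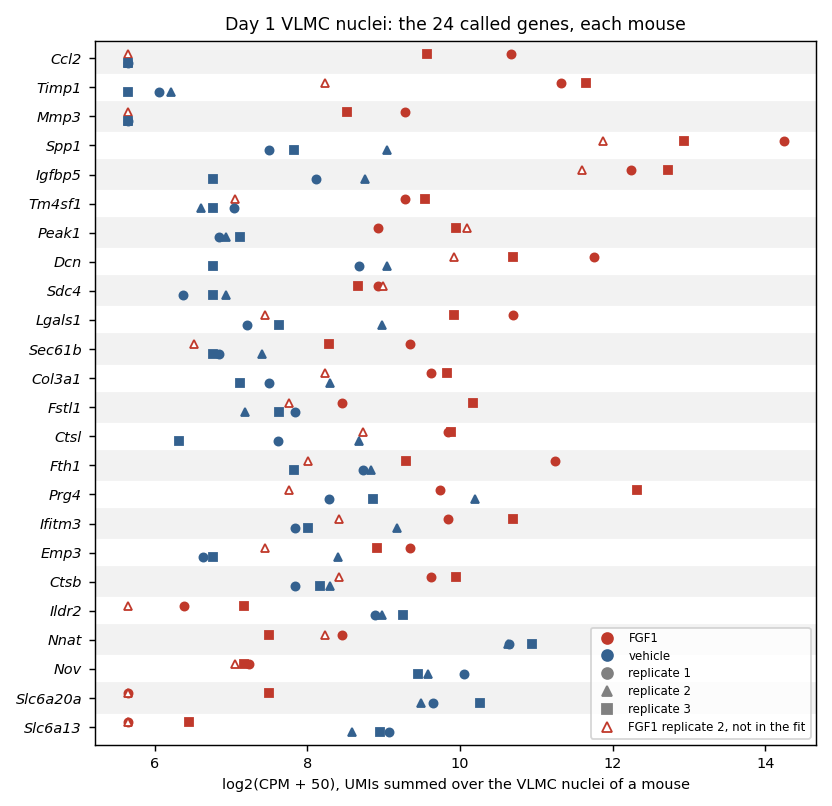
Levels of the 24 genes called on Day 1 in VLMC nuclei, on a log2 scale of CPM plus 50, where CPM is a gene's UMIs relative to the mouse's TMM-scaled total, with 1 point per mouse. Red points are FGF1 mice, blue points vehicle mice, and the open triangle is FGF1 replicate 2, which was not in the test. For the 5 lower genes, the 3 FGF1 mice lie below the 3 vehicle mice, and for Ccl2 and Mmp3 the open triangle lies with the vehicle mice.

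Spp1 encodes osteopontin, a secreted phosphoprotein that binds integrins. Its level was 19266, 3700.3 and 7793 CPM in FGF1 replicates 1, 2 and 3, and 130.1, 479 and 177 CPM in vehicle replicates 1, 2 and 3. The lowest FGF1 mouse was above the highest vehicle mouse. The log2 fold change was 5.96 ± 1.11 (SE), with an adjusted p of 5.60e-05 by edgeR. It was 5.65 (adjusted p = 0.0779) without vehicle replicate 1 and 6.93 (adjusted p = 0.0517) without vehicle replicate 2. At least 1 Spp1 UMI was found in 40 of 46 FGF1 nuclei and 17 of 46 vehicle nuclei. In neurons and other nuclei of the FGF1 mice outside the named glial and vascular types the share was 4.35%, at a median depth of 2283 UMIs against 2276 in VLMCs. VLMC nuclei held 53.9% of all Spp1 UMIs of the Day 1 FGF1 mice.

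Timp1, a secreted inhibitor of matrix metalloproteinases, stood at 2509, 249 and 3158 CPM with FGF1 and at 16.3, 23.9 and 0 CPM with vehicle. The groups did not overlap, although FGF1 replicate 2 was about an order of magnitude below the other FGF1 mice. Its log2 fold change was 7.60 ± 0.95 (SE, adjusted p = 1.38e-10). A UMI was present in 34 of 46 FGF1 nuclei and 2 of 46 vehicle nuclei. In the FGF1 mice it was present in 7.41% of neurons and other nuclei outside the named glial and vascular types. VLMCs held 9.96% of the Timp1 UMIs of these mice. Astrocytes had the next highest level, 716 CPM against 2163 CPM in VLMCs over pooled UMIs without TMM scaling.

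Igfbp5, which encodes a secreted binding protein of insulin-like growth factors, was at 4783, 3035 and 6690 CPM with FGF1 and at 228, 383 and 59.0 CPM with vehicle. Every FGF1 mouse was above every vehicle mouse. The log2 fold change was 4.86 ± 0.84 (SE, adjusted p = 1.44e-05). VLMCs held 41.2% of the Igfbp5 UMIs of the Day 1 FGF1 mice and 7.94% of those of the vehicle mice.

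Mmp3, a matrix metalloproteinase, and Ccl2, a chemokine that draws monocytes, had no UMI in any vehicle mouse. Ccl2 was at 1572, 0 and 710 CPM in FGF1 replicates 1, 2 and 3. Its 85 UMIs against 0 made it at least 40.8-fold higher over the group, with 3 counts taken as the floor, and the edgeR adjusted p was 1.20e-10. Mmp3 was at 569, 0 and 318 CPM, at least 16.3-fold higher (34 UMIs against 0, adjusted p = 3.39e-05, and 0.0705 without FGF1 replicate 1). Both lay in few nuclei, 7 of 46 each, and both were at 0 in FGF1 replicate 2, so that the groups touched. In FGF1 replicate 1, all 47 Ccl2 UMIs lay in 2 of 12 nuclei and all 17 Mmp3 UMIs in 1. In FGF1 replicate 3, 38 Ccl2 UMIs lay in 5 of 28 nuclei and 17 Mmp3 UMIs in 6. The tests of both genes thus rest on very few nuclei. Il11, an interleukin of the IL-6 family named here after its values were seen, had 54 UMIs in 12 of 46 FGF1 nuclei and none with vehicle (at least 25.9-fold), with 33.4, 374 and 822 CPM in the FGF1 mice.

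The stretches of 250 bases before the start sites of Spp1, Timp1 and Mmp3 are shown because these genes rose most among those that make or remodel matrix. They are given as in RefSeq (GRCm38.p6, plus strand). Capitals mark a match to the AP-1 letters TGANTCA or the ETS letters CCGGAAG on either strand, motifs of factor families that act below MAP kinases.
Spp1, chr5:104434861-104435110: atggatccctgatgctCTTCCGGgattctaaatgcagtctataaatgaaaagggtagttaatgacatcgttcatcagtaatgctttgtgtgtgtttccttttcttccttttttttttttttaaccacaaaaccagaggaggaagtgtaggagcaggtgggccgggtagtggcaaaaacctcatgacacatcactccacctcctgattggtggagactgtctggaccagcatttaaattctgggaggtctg
Timp1, chrX:20869916-20870165: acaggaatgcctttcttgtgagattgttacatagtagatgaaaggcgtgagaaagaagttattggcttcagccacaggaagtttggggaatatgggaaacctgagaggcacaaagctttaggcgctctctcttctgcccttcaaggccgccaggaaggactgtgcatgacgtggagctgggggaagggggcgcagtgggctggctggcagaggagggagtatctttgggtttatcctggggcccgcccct
Mmp3, chr9:7445572-7445821: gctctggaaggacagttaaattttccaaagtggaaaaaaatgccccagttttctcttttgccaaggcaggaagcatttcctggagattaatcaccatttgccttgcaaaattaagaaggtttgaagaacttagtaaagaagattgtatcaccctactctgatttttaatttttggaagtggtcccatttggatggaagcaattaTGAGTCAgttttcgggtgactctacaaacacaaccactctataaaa
Spp1 has an ETS match starting 234 bases before the first of its 2 listed starts, Mmp3 has an AP-1 match 46 bases before its start, and Timp1 has neither. Of 32851 promoter windows of this length, 6.75% hold the AP-1 letters and 6.91% the ETS letters. Of the 24 called genes, 18 were found in the promoter table, 3 of them with the AP-1 letters (Mmp3, Ifitm3 and Sec61b) and 1 with the ETS letters (Spp1). A match describes the letters only.

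Among structural matrix genes, Dcn was at 3412, 915 and 1607 CPM with FGF1 and at 358, 479 and 59.0 CPM with vehicle, and the groups did not overlap. Its log2 fold change was 3.32 ± 0.72 (SE, adjusted p = 0.00121), and it was not called with all 6 mice (3.09, adjusted p = 0.142), nor without any 1 of the vehicle mice (adjusted p from 0.0562 to 0.203). Col3a1, a fibrillar collagen chain, rose by the same test (2.51 ± 0.64, adjusted p = 0.0111) with 736, 249 and 860 CPM against 130.1, 263 and 88.6 CPM, and there the groups overlapped. Fstl1, a secreted follistatin-like glycoprotein, rose as well (2.51 ± 0.64, adjusted p = 0.0111), also with overlap. Col1a1 was too low to be tested, at 33.4, 41.6 and 56.1 CPM with FGF1 and 97.6, 95.7 and 29.5 CPM with vehicle. By list, 1 of 4 tested collagens, 3 of 11 proteoglycans and glycoproteins and 1 of 7 matrix enzymes and inhibitors were called higher and none lower, with median log2 fold changes of 1.02, 0.89 and 0.20, beside 1.79% called higher and a median of -0.01 over all genes tested. Mmp3, called higher, is not on the list of matrix enzymes and inhibitors and so is not in its count.

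Prg4, a surface lubricant, was called at the edge (2.40 ± 0.72, adjusted p = 0.0495). Its values were 803, 166 and 5046 CPM with FGF1 and 260.2, 1125 and 413 CPM with vehicle. FGF1 replicate 3 was above every other mouse, while FGF1 replicate 2 was below every vehicle mouse. Of the 5 fits without 1 mouse, it was called in 1, that without FGF1 replicate 1.

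Of the other genes that rose, Peak1 (a cytoskeletal pseudokinase) and Sdc4 (syndecan 4, a heparan sulfate proteoglycan of the cell surface that can bind FGFs) held in all 6 mice. Peak1 was at 435, 1039 and 934 CPM with FGF1 and 65.1, 71.8 and 88.6 CPM with vehicle (log2 fold change 3.40 ± 0.67, adjusted p = 0.000174, and 0.0649 without FGF1 replicate 3 and 0.0517 without vehicle replicate 2). Sdc4 was at 435, 457 and 355 CPM against 32.5, 71.8 and 59.0 CPM (3.09 ± 0.81, adjusted p = 0.0135). In both, all FGF1 mice were above all vehicle mice.

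Ctsl and Ctsb, lysosomal cysteine proteases, were the 2 called of 8 tested cathepsin and lysosome genes (2.49 ± 0.64 and 2.11 ± 0.62, adjusted p = 0.0117 and 0.0447). The list's median was 0.10, and 1.79% of all genes were called higher, with a median of -0.01. A list of glial reactive genes, written with earlier results of these data known, had 16 tested members. Of these, Timp1, Spp1, Tm4sf1 (a tetraspan membrane protein), Lgals1 (galectin 1) and Emp3 rose and Nnat fell. The median was 1.81 with 14 above 0, beside the 1.79% of all genes called higher and 0.471% called lower. Because of how the list was made, these counts are a description only. Tm4sf1 had a log2 fold change of 3.48 ± 0.67 (adjusted p = 0.000122), and Lgals1 of 2.67 ± 0.67 (adjusted p = 0.0103) with 1606, 124.7 and 916 CPM against 97.6, 455 and 147.6 CPM. FGF1 replicate 2 lay among the vehicle mice for Lgals1. The remaining calls were Sec61b (a subunit of the protein channel of the endoplasmic reticulum), Fth1 (ferritin heavy chain) and Ifitm3 (an interferon-induced membrane protein), all higher.

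Slc6a13 and Slc6a20a fell. Slc6a13 was at 0, 0 and 37.4 CPM in FGF1 replicates 1, 2 and 3 and at 488, 335 and 443 CPM in vehicle replicates 1, 2 and 3. All FGF1 mice lay far below the vehicle mean of 422 CPM ± 78.6 (SD, n = 3), and a UMI was found in 2 of 46 nuclei against 25 of 46. The log2 fold change was -3.84 ± 0.91 (SE, adjusted p = 0.00507). It was called with all 6 mice (adjusted p = 0.0210), and not without vehicle replicate 1 (adjusted p = 0.512) or vehicle replicate 2 (0.0517).

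Slc6a20a gave 0, 0 and 131 CPM with FGF1 and 748, 670.0 and 1181 CPM with vehicle, again without overlap. The log2 fold change was -3.26 ± 0.79 (SE, adjusted p = 0.00606, and 0.103 without vehicle replicate 2 and 0.0989 without vehicle replicate 3). Endothelial nuclei, the other type with clear Slc6a20a, had 210.3 CPM with FGF1 and 406 CPM with vehicle over pooled UMIs without TMM scaling. Of 10 tested meningeal solute carriers these 2 were called and the median log2 fold change was -1.26, with 1 above 0, where 0.471% of all genes were called lower and their median was -0.01. The annotation rests on expression, and whether the change in these carriers bore on which nuclei were annotated VLMC was not tested.

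Nov (a secreted CCN family matricellular protein) was at 100.3, 83.2 and 93.4 CPM with FGF1 and 1008, 718 and 649 CPM with vehicle (log2 fold change -2.79 ± 0.75, adjusted p = 0.0183). Ildr2, a membrane protein gene known as a diabetes modifier in obese mice, fell from 423, 455 and 561 CPM to 33.4, 0 and 93.4 CPM (-2.54 ± 0.75, adjusted p = 0.0447). Nnat (neuronatin, a small membrane proteolipid) fell from 1545, 1531 and 1919 CPM to 301.0, 249 and 130.8 CPM (-2.72 ± 0.79, adjusted p = 0.0388). None of these 3 genes overlapped between the groups. Nnat was also lower in other nuclei, with a UMI in 36.1% of neurons and remaining nuclei of FGF1 mice and 62.0% of those of vehicle mice.

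Over all 6 mice, 9 of the 19 higher genes lay wholly above the vehicle mice and 5 of 5 lower genes wholly below, where 2.83% of all tested genes lay above and 15.4% below. All of these mice except FGF1 replicate 2 are those on which the genes were called, which largely fixed their separation. The exceptions among the higher genes were Ccl2, Mmp3, Lgals1, Col3a1, Fstl1, Sec61b, Fth1, Ifitm3, Emp3 and Prg4. Within the 3 batches, 18 of the 24 genes kept the sign of their fold change in all 3, as did 32.2% of all 1061 genes, and Ccl2, Mmp3, Fstl1, Sec61b, Fth1 and Prg4 did not. The mice of 2 of these 3 batches are those on which the genes were called, which largely fixed the sign there. For Spp1 the differences within batches were 6.41, 4.38 and 3.89 on the log2 scale of CPM plus 50, for Igfbp5 5.47, 3.47 and 3.96, and for Slc6a13 -3.30, -3.43 and -2.14.

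Among markers of other cells, those of astrocytes separated the Day 1 groups. The summed level of 6 astrocyte markers in the Day 1 VLMC nuclei was 19.4 to 23.8 UMIs per 10000 with FGF1 and 30.04 to 60.9 with vehicle. Oligodendrocyte lineage markers ran from 1.37 to 2.83 and from 2.63 to 8.69, and mural cell markers from 0.934 to 2.88 and from 2.11 to 8.35, mostly lower with FGF1 but with overlap. Neuron markers (37.6 to 93.4 and 44.8 to 63.3) and endothelial markers (1.87 to 9.90 and 3.42 to 4.84) overlapped in full. The VLMC markers themselves ran from 34.1 to 66.3 and from 36.7 to 54.7. Leaving out nuclei with over 50 neuron UMIs per 10000 gave 17 calls, of which 16 were among the 24, and leaving out nuclei above 5% mitochondrial or ribosomal UMIs gave 25, of which 18 were. The part of RNA of other cells in the results was not tested.

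Lists without a call were also read by level. Of the metallothionein and stress list, Mt2 (a zinc-binding protein) was at 8362, 3160 and 2822 CPM with FGF1 and 1236, 1077 and 1358 CPM with vehicle, yet missed the threshold (2.50 ± 0.80, adjusted p = 0.0828). Fkbp5, a glucocorticoid-induced co-chaperone of the same list, lay the other way at 133.8, 208 and 411 CPM against 1480.0, 526.4 and 768 CPM (-1.49 ± 0.69, adjusted p = 0.318). Of the 7 tested genes of this list, 6 were above 0, with a median of 1.55 beside -0.01 over all genes. Ptgds, the prostaglandin D synthase abundant in meninges and oligodendrocytes, was at 167, 3493 and 4298 CPM against 11498, 56063 and 13313 CPM and missed the threshold too (-3.52 ± 1.18, adjusted p = 0.104). Of the 3 tested genes of its retinoid and prostaglandin list, 2 were above 0, with a median of 0.33. Mt2, Fkbp5 and Ptgds did not overlap between the groups. Of all 1061 genes tested, 2.83% lay wholly above the vehicle mice like Mt2, and 15.4% wholly below like Fkbp5 and Ptgds. Of 36 FGF receptor and MAPK feedback genes, 3 were high enough to be tested and none was called: Fgfr2 at -1.02, Fgfr1 at 0.73 and Spred1, an inhibitor of Ras signalling, at 1.96 on the log2 scale. None of 6 fibroblast transcription factors or 6 TGF-beta and BMP genes was called, with medians of -0.05 and 0.12. In the insulin-like growth factor list 1 of 4 was called (Igfbp5) and in the growth factor and cytokine list 1 of 4 (Ccl2), both higher, with medians of 0.51 and 1.32, beside 1.79% of all genes called higher. None of 58 tested ribosomal protein genes was called, although all 58 were above 0 with a median of 1.01, beside the high ribosomal share of FGF1 replicate 1. On Day 5 the direction was opposite, with none of 13 tested called, none above 0 and a median of -0.92.

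The VLMC nuclei differed among themselves. After the values had been seen, nuclei were divided by whether they held at least 2 UMIs of Prg4, Nov, Dapl1, Igfbp6 and Mgp, the 5 genes that most mark cluster 20 of the whole cells. Of the 115 nuclei 66 did: 27 of 46 (FGF1) and 29 of 46 (vehicle) on Day 1, and 4 of 13 (FGF1) and 6 of 10 (vehicle) on Day 5. Near this limit, 9 nuclei held 1 such UMI and 4 held 2, and 40 held none. Slc6a13 and Slc6a20a lay mainly in the remaining nuclei: in Day 1 vehicle mice a Slc6a13 UMI was found in 16 of 17 nuclei without these genes and in 9 of 29 with them.

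The nuclei without these genes were 2, 4 and 13 in FGF1 replicates 1, 2 and 3 and 7, 3 and 7 in vehicle replicates, and the following levels pool them over mice as a description. Prg4 and Nov are among the 5 genes and were themselves called on Day 1, so a change in a gene and a change in which nuclei fall on each side cannot be told apart. Spp1 stood with FGF1 at 116 UMIs per 10000 against 2.57 in nuclei with the cluster 20 genes and at 61.5 against 0.932 in nuclei without them. Igfbp5 was at 79.4 against 2.66 with them and 7.52 against 0.373 without. Dcn was at 17.1 against 2.22 with them and 19.6 against 3.54 without. Slc6a13 was at 0 against 2.22 with them and 0.418 against 6.34 without, and in the latter 2 of 19 FGF1 nuclei held a UMI. Summed per mouse, only the nuclei with these genes gave 9 calls in the mice of the main test, without FGF1 replicate 2. Those without these genes gave 1, Spp1, among 125 genes tested in all Day 1 mice. Mice, nuclei and genes tested differed between these fits, so the counts do not show where the response lay.

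**Figure D2:**
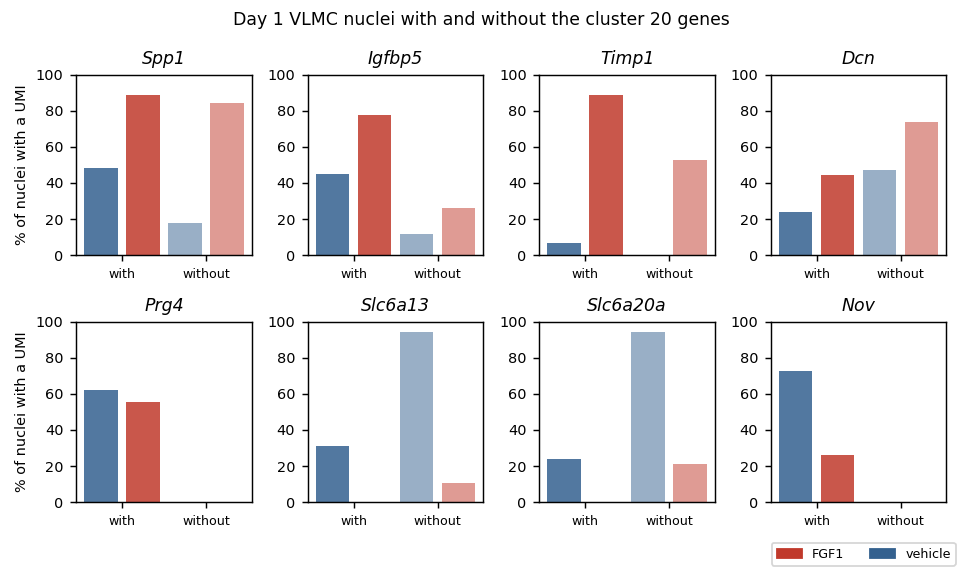
Share of Day 1 VLMC nuclei with at least 1 UMI of each of 8 genes, in nuclei with the cluster 20 genes (29 vehicle, 27 FGF1) and without them (17 vehicle, 19 FGF1). Blue bars are vehicle and red bars FGF1, with the nuclei of a group pooled over mice and no error shown. Slc6a13 and Slc6a20a are found mainly in vehicle nuclei without these genes, and Spp1 in FGF1 nuclei of both kinds.

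To ask whether the change lasted, Day 5 was tested on 4 mice and 270 genes. There 1 gene (0.37%) was called, Nov, lower with FGF1 at 33.2 and 0 CPM against 879 and 606 CPM (-5.01 ± 0.96, adjusted p = 0.000188 by edgeR's quasi-likelihood test). DESeq2 called none, and Nov was not called without FGF1 replicate 37 (adjusted p = 0.208) or vehicle replicate 28 (adjusted p = 0.405). Nov is one of the cluster 20 genes, and 4 of 13 FGF1 nuclei and 6 of 10 vehicle nuclei were of that kind. Within these nuclei, pooled over mice, Nov was at 0.840 against 13.7 UMIs per 10000, with a UMI in 1 of 4 and 5 of 6 nuclei. Since Nov UMIs help to define these nuclei, a change in Nov and a change in which nuclei count cannot be told apart here. Unadjusted p was below 0.05 for 27 genes (10.0%). The metadata put the Day 5 mice in batches 1 and 2, with 1 FGF1 and 1 vehicle mouse in each. The Day 1 mice were in other batches, so day and batch cannot be told apart across days.

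On Day 5 the levels of Spp1 and Igfbp5 overlapped between the groups. Spp1 was at 33.2 and 271 CPM with FGF1 and 55.0 and 394 CPM with vehicle, and Igfbp5 at 265 and 271 CPM against 329.7 and 121 CPM. Slc6a13 was at 398 and 433 CPM with FGF1 and 164.9 and 242 CPM with vehicle, and Slc6a20a at 630.4 and 704 CPM against 219.8 and 485 CPM. For both carriers the FGF1 mice lay above the vehicle mice, opposite to Day 1, with Slc6a20a at 0.81 ± 0.65 (adjusted p = 0.807) and Slc6a13 too low to be tested. On this day 9 of 13 FGF1 nuclei and 4 of 10 vehicle nuclei lacked the cluster 20 genes, and the carriers lay mainly in these. Pooled over those nuclei alone, the levels with FGF1 and vehicle were 6.15 and 5.22 UMIs per 10000 for Slc6a13 and 9.53 and 9.02 for Slc6a20a. The split was made after the values had been seen, and vehicle replicate 28 gave 1 such nucleus. Whether the mix of nuclei bore on the levels of the carriers was not tested. Timp1 and Peak1 lay above the vehicle mice in the FGF1 mice, as on Day 1, but at few UMIs. With 2 against 2 mice, and no share of all genes so ordered, whether their change lasted cannot be read from this. Timp1 was at 33.2 and 54.2 CPM with FGF1 (2 UMIs) and 0 with vehicle, and Peak1 at 132.7 and 108.3 CPM (6 UMIs) and 0, at least 2.13-fold higher, and both were too low to be tested. Ccl2, Mmp3 and Il11 had no UMI on Day 5.

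The difference between the Day 1 and Day 5 effects was tested with mice of at least 5 nuclei, which left 1 vehicle mouse of 7 nuclei on Day 5, assumed to vary like the mice of the other groups. By edgeR, 0 of 1394 genes passed and 86 (6.17%) had an unadjusted p below 0.05, and with all mice 0 passed and 58 did. Spp1 had the interaction 6.87 ± 1.62 (adjusted p = 0.430), Slc6a13 -5.00 ± 1.27 (adjusted p = 0.469), Slc6a20a -4.22 ± 1.29 (adjusted p = 0.669) and Igfbp5 3.40 ± 1.45 (adjusted p = 0.796). With so small a Day 5 arm, these p-values say little about whether the Day 1 changes lasted.

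**Figure D3:**
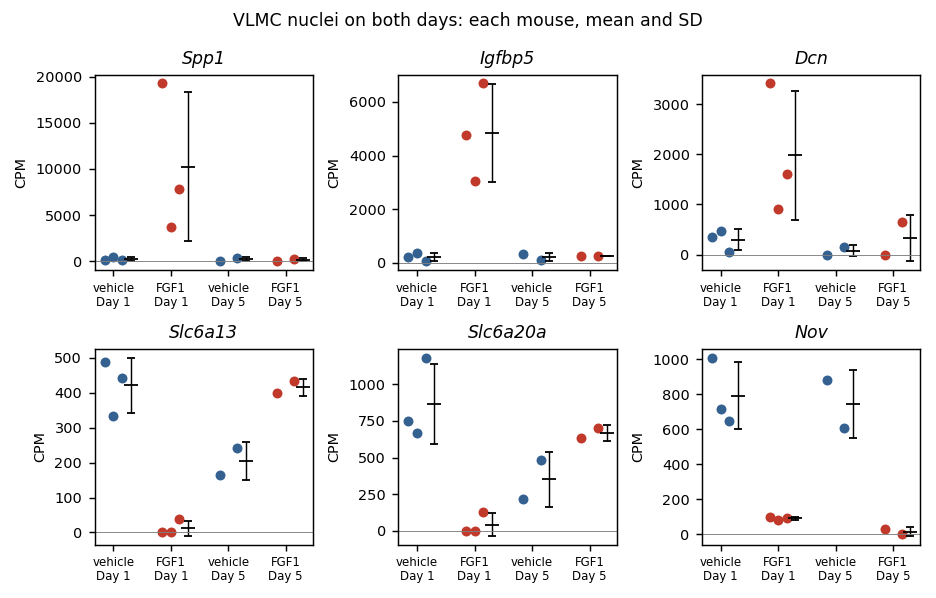
Levels of 6 genes in VLMC nuclei in TMM-scaled CPM, with 1 point per mouse and the mean and SD of each group beside it (3 mice on Day 1, 2 on Day 5). The Day 1 FGF1 mice stand apart from all other mice for Spp1 and Igfbp5 (above) and Slc6a13 (below), while Nov is low in the FGF1 mice of both days.

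In the separate Day 5 cohort of whole cells, the cluster with most VLMC markers held 752 cells and 10 of the 14 markers, Dcn, Col3a1 and Lum among its leading genes. With 5 FGF1 and 4 vehicle mice of at least 10 such cells, edgeR called 0 of 877 genes, 13 (1.48%) had an unadjusted p below 0.05, and DESeq2 called 0. Adding cluster 20, or clusters 19 and 20, to these cells also gave 0 calls, with 20 of 1296 and 37 of 927 genes at an unadjusted p below 0.05. Of the 24 Day 1 genes, 17 were tested, 10 had the sign of Day 1, and Lgals1 alone had an unadjusted p below 0.05 (0.83 ± 0.28). The largest change among the 17 was that of Spp1, 1.29 ± 0.93, with 526.3 to 7398 CPM in FGF1 mice and 231 to 1404 CPM in vehicle mice, which overlapped. Slc6a13 was at 562 CPM ± 508 (SD, n = 5) and 304 CPM ± 204 (SD, n = 4), and Dcn at 4315 ± 2032 and 3195 ± 2343 CPM. Timp1 had 41 UMIs in the FGF1 mice, from 0 to 114 CPM per mouse, and none in the vehicle mice, so that the groups touched at 0. Whole cells also carry cytoplasmic RNA, and their cluster was named from markers here, so the levels cannot be set beside those of nuclei. The 752 cells also held little of the cluster 20 genes. In the tested mice Prg4 had 2 UMIs with FGF1 and 1 with vehicle, and Nov had 1 and 2. Among the VLMC nuclei, 66 of 115 carried these genes. The Day 1 genes were thus not looked up in the same mix of cells, and supplier and dissection differed too.

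The Day 1 response of VLMCs was compared with that of the astrocytes and tanycytes of the same 5 mice by an interaction test with mouse as a block. Against astrocytes, 8 of 4384 genes (0.182%) differed. In VLMCs 1 of them (0.0228%) was more positive, Igfbp5, by 4.14 ± 0.73 (adjusted p = 0.000448). In astrocytes alone Igfbp5 changed by 0.67 ± 0.53 (adjusted p = 0.993). Among the 7 genes (0.16%) more negative in VLMCs were Igfbp2, Vim, Ptgds, S100a11, Hspb1 and Ano6. Vim encodes the intermediate filament vimentin and differed by -3.24 ± 0.71 (adjusted p = 0.0162), and Ptgds by -3.49 ± 0.72 (adjusted p = 0.00878).

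Against tanycytes, 20 of 2724 genes (0.734%) differed, 5 of them (0.184%) more positive in VLMCs and 15 (0.551%) more negative. Igfbp5 differed by 3.85 ± 0.67 (adjusted p = 0.00178) and Ctsl by 3.08 ± 0.62 (adjusted p = 0.00813), and the others were Col5a2, Arhgap6 and Adamts6. Among the 15 more negative in VLMCs were Lgals1 (-2.72 ± 0.70, adjusted p = 0.0454) and Ptgds (-3.41 ± 0.63, adjusted p = 0.00859). Igfbp5 and Ptgds thus differed from both types, in opposite directions.

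Some of the Day 1 genes were also called in the neighbouring types. In astrocytes alone, 5 of the 15 tested were called: Timp1 (8.04), Spp1 (6.80), Tm4sf1 (5.39), Lgals1 (4.11) and Ifitm3 (3.44), where 0.716% of all genes were. In tanycytes alone 8 of 14 were called, 7 higher, among them Timp1 (6.83) and Lgals1 (5.38), and Nnat lower (-4.04), where 4.84% of all genes were. The effects on Timp1 and Spp1 were not shown to differ between VLMCs and these types.

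**Figure D4:**
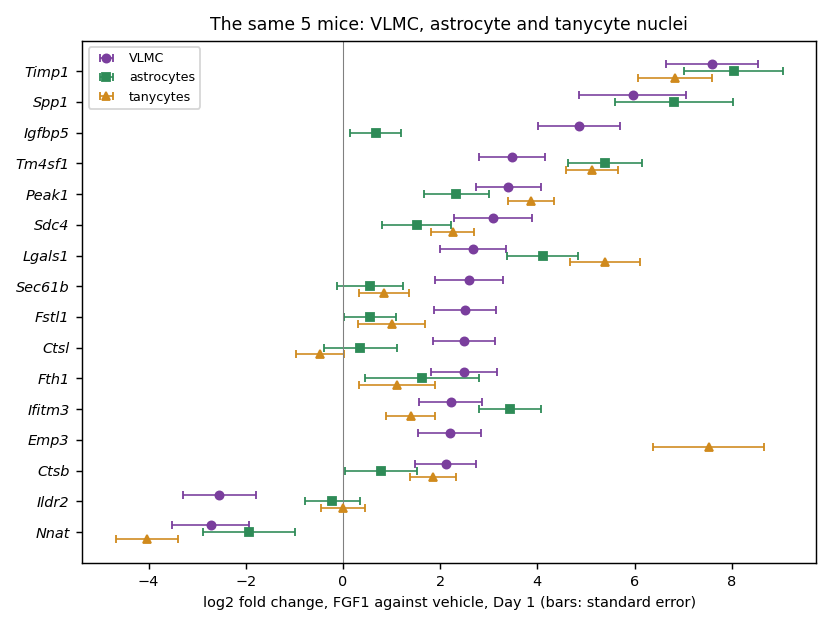
Day 1 log2 fold change of FGF1 over vehicle with its standard error in VLMC (purple), astrocyte (green) and tanycyte nuclei (orange), for the 16 VLMC-called genes tested in VLMCs and at least 1 other type. Timp1 lies above 6 in all 3 types, while Igfbp5 is at 4.86 in VLMCs and 0.67 in astrocytes.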

How the data were processed

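Nuclei came from 10 mice and whole cells from 12, each mouse being 1 library. Per the methods, the authors aligned 10x Chromium 3' v2 libraries with Cell Ranger 1.2 to GRCm38 with introns included for nuclei, filtered nuclei on gene number, ran no doublet caller on nuclei and ran one on whole cells. They deposited raw UMI counts, which are used here. The stated removal of nuclei above 5% ribosomal UMIs does not hold in the file, where 13 VLMC nuclei exceed it. No doublet caller was run here. The metadata name no barcodes and were joined to the counts by order, since totals and gene numbers matched for every barcode.

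UMIs were summed per mouse, genes filtered by filterByExpr, libraries scaled by TMM and tested with edgeR 4.0.16 (robust quasi-likelihood, Benjamini-Hochberg) without covariates in R 4.3.3, with DESeq2 1.42.0 and the settings listed at the end as alternatives. A mouse entered with at least 10 VLMC nuclei, and all Day 5 mice entered since none had 10. Levels are TMM-scaled CPM, and SEs come from the F statistic. Bounds against 0 use 3 counts for the group at 0 and take the other group's UMIs as counted. They cover counting error of the group at 0 only. Genes named are those called (at most 30 on Day 1 and 15 on Day 5), Dcn, Col1a1 and Slc6a13, and in each list the called or at most 4 highest members, and exceptions are said to be. A named item of these results is not reported here. The members and lists were chosen with earlier results of these data known. Whole-cell clusters 13, 19 and 20 held at least 3 of 14 VLMC markers in 10% of cells at 2 times the level elsewhere. After their profiles had been seen only cluster 13 was used, since cluster 19 was led by smooth muscle genes and cluster 20 had no VLMC marker among its 10 leading genes, a departure from the planned rule whose effect is given. On simulated data of the Day 1 design, 771 genes passed the filter, 161 of them changed 8-fold. Of these 161, 97.5% were recovered, with 3 false calls. Changed genes that failed the filter were not counted. The simulated mice varied by a fitted dispersion only, without batches or an outlying mouse. The simulation thus does not give the power or the number of false calls in the real mice. Of the 24 genes called on Day 1, 23 were found by symbol in GENCODE, of which 5 overlap a gene on the same strand and 10 one on the other strand, so that counts with introns can hold reads of the neighbour.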

Additional observations from a re-analysis of the deposited data

Results flagged for a closer look

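In the whole cells of Day 5, Spp1 stood at 7398 CPM in FGF1 replicate 10, farther from the other 4 FGF1 mice than Dixon's test allows at the 95% level, a distance that chance gives in about 1 in 20 groups. On Day 1 the log2 effect of FGF1 on Igfbp5 was greater in VLMCs than in astrocytes by 4.14 and than in tanycytes by 3.85, that on Ctsl was greater than in tanycytes by 3.08, and that on Lgals1 differed from tanycytes by -2.72, each by an interaction test across all genes. These tests rest on 2 FGF1 and 3 vehicle mice.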

How the results depend on the processing

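The number of Day 1 calls, 24, was 15 with DESeq2 (12 of them shared) and 9 with all mice. It was 1 without nuclei with the cluster 20 genes (all mice) and 9 with only those nuclei (without FGF1 replicate 2). Leaving out 1 mouse gave 4 to 123. With the replicate number as a block it was 13, and 7 with all mice, but same-numbered mice did not deviate together (correlations -0.38, -0.42 and 0.08 over 741 genes), so the numbers do not pair the mice. With the batch as a block it was 2, with 1 residual degree of freedom, and 13 with all mice, and mice of the same batch had correlations of 0.47, -0.02 and -0.09. RLE scaling (19), the 4 groups in 1 fit (17), thinning nuclei to at most 2155 UMIs (16, with 29 nuclei already at or below that depth) and the filters on ribosomal and neuron UMIs (25 and 17) stayed within 1.5 times. Without a filter on low genes it was 24 as well, all higher and 8 of them shared. Neither the 24 Day 1 genes nor Nov on Day 5 reversed their sign in an alternative fit that tested them, and the other genes named were not followed. The single Day 5 call became 0 with DESeq2, with no filter, with the 5% filter and without nuclei with the cluster 20 genes, 2 with only those, 2 without nuclei rich in neuron UMIs, 3 in thinned nuclei (in these last 3 settings none of them Nov) and 0 to 3 without 1 mouse. The difference in VLMC share reversed on Day 1 when taken over non-neuronal nuclei (0.1003 percentage points), ran from -0.862 to 0.275 without 1 mouse, and on Day 5 from -0.988 to 0.102. The interaction with at least 10 nuclei could not be fitted because no Day 5 mouse had them. The cause of these changes was not tested. Few nuclei per mouse limit all results, and genes absent from the tested set were too low to test, not shown to be unchanged.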

Other observations

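A pair of genes were outside the rule for naming and are given because their values stood out. Lcn2, a secreted iron-siderophore binding protein, had 50 UMIs in Day 1 FGF1 VLMC nuclei and none in vehicle nuclei, at least 24.0-fold higher, with 1405, 41.6 and 130.8 CPM in FGF1 replicates 1, 2 and 3. Most of it came from FGF1 replicate 1. Ranbp3l, one of the VLMC markers, was at 0, 0 and 430 CPM with FGF1 and 472, 1196 and 1299 CPM with vehicle on Day 1, and at 1891 and 1083 CPM against 275 and 909 CPM on Day 5. Its FGF1 mice lay below the vehicle mice on Day 1 and above them on Day 5. On Day 5 most of its UMIs, 72 with FGF1 and 29 with vehicle, lay in nuclei without the cluster 20 genes, which were 9 of 13 and 4 of 10 nuclei, at 22.1 and 13.8 UMIs per 10000 of these nuclei.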
